A study of Mus musculus with 15 samples.

Results

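Nphs1 and Kirrel2 are adjacent genes on mouse chromosome 7, and their transcript levels were followed through a knockdown of Smarcb1 in embryonic stem cells. They are 2 of the 55228 genes listed for each library. They were picked because both were higher at 72 h of knockdown and lower at 240 h than in untreated cells, so their differences at those times are given as a description with no test. Nphs1 encodes nephrin, a transmembrane protein of the immunoglobulin superfamily that spans the slit diaphragm, the filtering junction between kidney podocytes, and its loss causes congenital nephrotic syndrome. Kirrel2 encodes Neph3, also called filtrin, a smaller adhesion protein of the same superfamily that is found at the same junction and in pancreatic islets. Nephrin and the Neph proteins bind each other through their extracellular parts, and their cytoplasmic tails recruit adaptor proteins that connect the junction to actin.

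RNA was sequenced from 81K1, a line of mouse embryonic stem cells made from 1 clone (K1) of the line OG2, in which an shRNA against Smarcb1 sits at the Rosa26 locus under a doxycycline-dependent promoter. Smarcb1 belongs to the BAF complex, which remodels chromatin. Knockdown cells (kd) received 1 µg of doxycycline per ml each day and were sampled at 48 h, 72 h and 240 h, and untreated cells (ctrl), which carry the same cassette, were sampled at 48 h and 240 h, with 3 libraries in each of the 5 groups. No untreated cells were sampled at 72 h, and the 72 h kd group was therefore compared with 48 h ctrl. A doxycycline-treated line without the shRNA was not analysed here. All groups grew in medium with serum and leukaemia-inhibitory factor. The labels do not say that the 3 libraries of a group came from separate cultures, so p-values measure the spread between these libraries, which may be technical.

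The libraries held 11074998 to 14515300 reads. Smarcb1 itself stood at 18.0%, 15.7% and 19.3% of its control level at 48 h, 72 h and 240 h. The stem cell markers Pou5f1, Nanog, Sox2, Esrrb, Zfp42 and Dppa5a were present in all 15 libraries. The second 48 h kd library stood apart from its group, with the highest share of mitochondrial reads (2.35%) and read counts that differed from the first and the third with a chi-square of 11.3 and 9.14 per degree of freedom, against 1.51 between the first and the third. The third 240 h ctrl library also stood apart, with the lowest mitochondrial share (0.469%) and a chi-square of 8.89 and 5.02 against its group, where the others differed by 2.23.

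The genes lie head to head. In the build mm10 (GRCm38), Kirrel2 (ENSMUSG00000036915.17) runs on the minus strand at chr7:30447534-30457690 and Nphs1 (ENSMUSG00000006649.17) on the plus strand at chr7:30458315-30487223, which leaves 624 bases between their spans. Their annotated transcripts begin at several places. The start of the coding transcript Kirrel2-201 is 800 bases from that of Nphs1-203 and 2210 bases from that of Nphs1-201, whereas the starts used by RefSeq are 2543 bases apart. The antisense gene Nphs1os (chr7:30462164-30465591) and the pseudogene Rps12-ps4 lie inside Nphs1 on the opposite strand, and Kirrel2 overlaps no other listed gene.

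The sequence next to each start is shown because the members share an arrangement and a time course. The RefSeq sequences (GRCm38.p6) hold 250 bases before and 50 bases after each start. The Kirrel2 line gives the 250 bases before the start, chr7:30457516-30457765 on the minus strand. Part of these bases lies within the spans of other annotated Kirrel2 transcripts. Kirrel2-202 begins at 30457690, before the marked motifs in the direction of the gene, and Kirrel2-203 at 30457652, after them. The Nphs1 line gives 30 bases, chr7:30460021-30460050 on the plus strand, since its window lies within the first exon of Nphs1-201. Capitals mark the motifs GGGAGGG and GGGCGG, which overlap in Kirrel2.
Kirrel2: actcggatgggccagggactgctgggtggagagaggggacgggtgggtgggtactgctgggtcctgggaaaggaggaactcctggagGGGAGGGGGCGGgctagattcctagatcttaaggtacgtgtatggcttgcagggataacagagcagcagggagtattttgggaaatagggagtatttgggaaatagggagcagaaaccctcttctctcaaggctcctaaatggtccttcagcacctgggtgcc
Nphs1: gaaggaaGGGAGGGAGGGAGGGAGGGaaga
In the Kirrel2 window GGGAGGG stood 163 bases before the start with GGGCGG overlapping its end, and in the Nphs1 window GGGAGGG occurred 4 times in overlapping copies, the first 30 bases before the start. Searched on both strands, GGGAGGG was held by 22.0% and GGGCGG by 35.7% of the 32851 RefSeq windows of this length. The TATA box TATAAA was in neither window. Nor was the CCAAT box, the E-box CACGTG or the nuclear receptor motif AGGTCA. The Nphs1 window was 77.7% purine on the strand of the gene, more than in 99.96% of all windows, and the Kirrel2 window 58% purine, more than in 90.2%. These matches describe the letters of the windows and say nothing of binding.

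Levels are given in FPKM, the reads of a gene scaled to the length of its span, introns included, and to the reads of the library. Group means are listed in the order 48 h ctrl, 48 h kd, 72 h kd, 240 h ctrl and 240 h kd. In untreated cells, the Kirrel2 level was 2.48, 2.24 and 2.17 FPKM in the libraries of 48 h and 2.34, 2.08 and 2.35 FPKM in those of 240 h. In kd cells it was at 3.77, 4.49 and 3.87 FPKM at 48 h, at 4.66, 4.72 and 4.72 at 72 h and, at 240 h, at 1.28, 1.10 and 1.16 FPKM. All 48 h and 72 h kd libraries thus lay above every control library, and all 240 h kd libraries below every control library. Groups of 3 did not overlap for 64.7% of all genes tested at 72 h and 50.2% at 240 h, and these contrasts chose the pair. The group means were 2.30 ± 0.167 (SD, n = 3), 4.04 ± 0.392, 4.70 ± 0.0321, 2.26 ± 0.154 and 1.18 ± 0.0910 FPKM. Each value rested on 160 to 636 reads.

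The Nphs1 level in untreated cells was 3.22, 2.80 and 2.84 FPKM in the libraries of 48 h and 3.67, 3.26 and 2.90 FPKM in those of 240 h. In kd cells it was at 3.73, 5.49 and 4.23 FPKM at 48 h, at 6.51, 7.19 and 6.32 at 72 h and, at 240 h, at 1.96, 1.57 and 1.78 FPKM. Apart from the ctrl groups, the order was that of Kirrel2, but the lowest 48 h kd library (3.73 FPKM) lay close to the highest 240 h ctrl library (3.67 FPKM). The group means were 2.95 ± 0.233 (SD, n = 3), 4.48 ± 0.905, 6.67 ± 0.453, 3.27 ± 0.386 and 1.77 ± 0.196 FPKM. Each value rested on 659 to 2566 reads. For both genes, the only neighbours in the order of group means whose ranges overlapped were the ctrl groups at 48 h and 240 h. In bulk RNA, fewer expressing cells and less RNA per cell cannot be told apart.

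**Figure D1:**
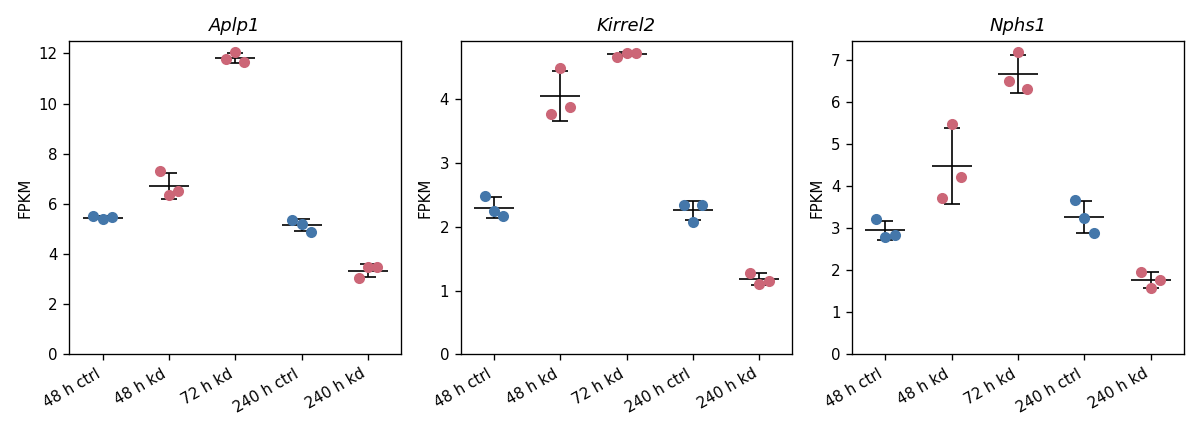
FPKM (vertical axis, from 0) of Aplp1, Kirrel2 and Nphs1 in each of the 15 libraries, by group. Points are libraries (blue ctrl, red kd) and black bars the group mean ± SD. In all 3 genes the 72 h kd libraries lie above, and the 240 h kd libraries below, every ctrl library.

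At 48 h, the one comparison that did not enter the choice of the genes, Kirrel2 was upregulated and Nphs1 did not pass the test. Kirrel2 was 1.73-fold higher in kd than in ctrl cells on the log2(FPKM + 0.1) scale, that is by 0.79 in log2 terms (SE 0.09, limma adjusted p = 0.00464 over 11420 genes). Nphs1 was 1.49-fold higher, or 0.57 in log2 terms (SE 0.15, limma adjusted p = 0.054). A gene was called where its adjusted p was under 0.05 and its log2 fold change beyond 0.58 in either direction, and 1.99% of the genes tested were called higher. This comparison shares its 48 h ctrl libraries with the 72 h comparison that chose the genes. The groups did not overlap for either gene, as was so for 39.4% of all genes tested. With limma voom on whole reads recovered from the FPKM values, both genes were called, with log2 fold changes of 0.81 (adjusted p = 2.64e-05) and 0.58 (adjusted p = 0.00159) for Kirrel2 and Nphs1, where 4.33% of genes were called higher. Without the second 48 h kd library the log2 fold change was 0.71 for Kirrel2 (limma adjusted p = 0.0085), still a call, and 0.42 for Nphs1 (limma adjusted p = 0.0458), under the limit on size, and without the first it was 0.69 for Nphs1 (limma adjusted p = 0.0437), a call.

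At 72 h, Kirrel2 was 2.01-fold higher than in 48 h ctrl cells (log2 fold change 1.00, SE 0.05) and Nphs1 2.22-fold (1.15, SE 0.07). At 240 h their log2 fold changes against ctrl cells of the same time were -0.88 (SE 0.07) for Kirrel2 and -0.85 (SE 0.11) for Nphs1, so that they stood at 52.2% and 54.1% of the control means in FPKM. Without the third 240 h ctrl library the log2 fold changes were -0.85 and -0.93. These contrasts chose the genes. Of all genes tested, 8.23% were called higher at 72 h and 4.12% lower at 240 h. Between 72 h and 240 h of knockdown the log2 differences were -1.91 (SE 0.06) for Kirrel2 and -1.86 (SE 0.10) for Nphs1. The ctrl groups, in contrast, differed between 240 h and 48 h by -0.02 (SE 0.08) and 0.14 (SE 0.11).

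The levels of the pair were also set against each other. At 48 h Kirrel2 had reached 78.5% of the log2 change it showed at 72 h, and Nphs1 49.6%. From 48 h to 72 h of knockdown the log2 difference was 0.22 (SE 0.08) for Kirrel2 and 0.58 (SE 0.17) for Nphs1. The ratio of Kirrel2 to Nphs1 in FPKM was 0.771, 0.800 and 0.762 in untreated cells at 48 h and 0.639, 0.638 and 0.810 at 240 h. In kd cells it was 1.01, 0.819 and 0.914 at 48 h, 0.716, 0.657 and 0.746 at 72 h and 0.651, 0.700 and 0.651 at 240 h. The ratio was thus highest in the 48 h kd libraries, none of which overlapped the 48 h ctrl or 72 h kd libraries. The log2 ratio differed by 0.23 (SE 0.09) between 48 h kd and 48 h ctrl and by -0.37 (SE 0.10) between 72 h kd and 48 h kd. For 48 h kd against 48 h ctrl, a two-sided exact permutation test gave p = 0.1, the smallest this test can give with 3 against 3 libraries, so it could not have passed the threshold. The later times chose the pair, and the ratio there is a description. At 240 h the log2 ratio of kd and ctrl differed by -0.05 (SE 0.12), and the groups overlapped. Without the third 240 h ctrl library, whose ratio was 0.810, that difference was 0.06. Exons make up 38.8% of the Kirrel2 span and 22.9% of the Nphs1 span. With all reads of the span divided by exonic length, the mean ratio was 0.459 in 48 h ctrl and 0.540 in 48 h kd. Reads over introns are included, so this is not a ratio of exonic reads.

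**Figure D2:**
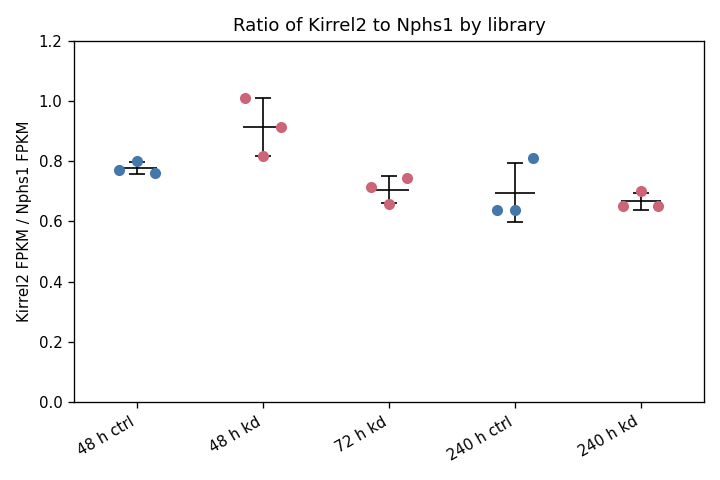
Ratio of Kirrel2 FPKM to Nphs1 FPKM (vertical axis, from 0) in each library, by group. Points are libraries (blue ctrl, red kd) and bars the mean ± SD. The 48 h kd libraries, at 0.819 to 1.01, lie above those of 48 h ctrl (0.762 to 0.800) and 72 h kd (0.657 to 0.746).

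Reads were counted without regard to strand, so Nphs1os and Nphs1 share reads. Nphs1os had 39 to 140 reads per library, with group means of 1.27, 2.22, 3.04, 1.79 and 1.10 FPKM, and its reads cannot be told apart from those of Nphs1. With the reads and bases of Nphs1os and Rps12-ps4 removed, the log2 differences of Nphs1 were 0.57, 1.15 and -0.86 at 48 h, 72 h and 240 h.

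On the other side of Kirrel2, 1998 bases beyond its end, lies Aplp1, which encodes an amyloid precursor-like membrane protein. It was not picked by the rule. Its untreated levels were 5.50, 5.40 and 5.46 FPKM in the libraries of 48 h and 5.35, 5.22 and 4.89 FPKM in those of 240 h. With knockdown they were 7.32, 6.36 and 6.51 at 48 h, 11.8, 12.1 and 11.7 at 72 h and, at 240 h, 3.04, 3.49 and 3.50 FPKM. The knockdown libraries of 48 h and 72 h lay above all untreated ones and those of 240 h below them. Within each comparison, kd and ctrl groups did not overlap for 39.4%, 64.7% and 50.2% of all genes tested at 48 h, 72 h and 240 h. Aplp1 was upregulated at 72 h (log2 fold change 1.10, SE 0.03, limma adjusted p = 1.5e-05) and downregulated at 240 h (-0.61, SE 0.07, limma adjusted p = 0.0018), and at 48 h its log2 fold change of 0.30 (limma adjusted p = 0.029) was under the limit on size. It had reached 26.8% of its 72 h change at 48 h. Its effects at 240 h and 48 h differed by -0.91 (limma interaction term, adjusted p = 0.000187), a term called for 5.82% of all genes. Beyond the Nphs1 end, Prodh2, a proline dehydrogenase family gene, had 1 to 11 reads per library and was not tested.

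Of 54 listed genes within 250000 bases of the pair, the 52 that do not lie inside Nphs1 were counted, since the nested ones share its reads. By limma on log2 FPKM, 0 of 31 tested were called at 48 h, where 3.99% of all genes were called, although 11 had an unadjusted p under 0.05, as did 31.9% of all genes. The voom fit called 0 of 36, beside 9.32% of all genes, and 12 had an unadjusted p under 0.05, as did 37.7% of all genes. At 72 h, 3 of 32 were called higher (Gm24757, Lrfn3 and Aplp1) and 2 lower (Igflr1 and Zbtb32), against 13.5% of all genes called in either direction. Gm24757, a small RNA gene with 6 to 16 reads per library, lies inside Alkbh6 and shares its reads, and was not called with recovered reads (limma voom adjusted p = 0.102). At 240 h, 5 of 31 were called lower (Capns1, Gm26810, Nfkbid, Aplp1 and Zbtb32) and 0 higher, against 4.12% and 4.79% of all genes. Of the 31, 13 had an unadjusted p under 0.05 in either direction, as did 44.9% of all genes. Gm26810 overlaps Capns1 on the opposite strand and may share its reads. Nfkbid, an inhibitor of NF-kappa-B signalling, had log2 fold changes of -0.54 at 72 h and -0.93 at 240 h, and Zbtb32, a zinc finger repressor, had -0.77 at both times. With recovered reads, 5 of 36 were called higher and 4 lower at 72 h, and 1 higher and 5 lower at 240 h, beside 22.5% and 18.1% of all genes called in either direction. Of these, 3 with 10 to 54 reads per library were called at 72 h alone. Upk1a, a uroplakin gene, was lower (-1.05, limma voom adjusted p = 0.00174), and Atp4a, a gastric proton pump subunit (0.69, limma voom adjusted p = 0.011), and Arhgap33os, an antisense gene beside Arhgap33 (0.76, limma voom adjusted p = 0.0088), were higher. The neighbour called higher at 240 h was Arhgap33, a GTPase-activating protein gene (log2 fold change 0.71, limma voom adjusted p = 0.00112), which was called higher at 72 h too (0.67, limma voom adjusted p = 0.000333). Aplp1 was the 1 neighbour outside Nphs1 with calls in opposite directions at 72 h and 240 h, by both fits. The median log2 fold change of the tested neighbours was -0.01, 0.02 and -0.12 at 48 h, 72 h and 240 h, beside 0.01, 0.01 and 0.00 over all genes tested.

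**Figure D3:**
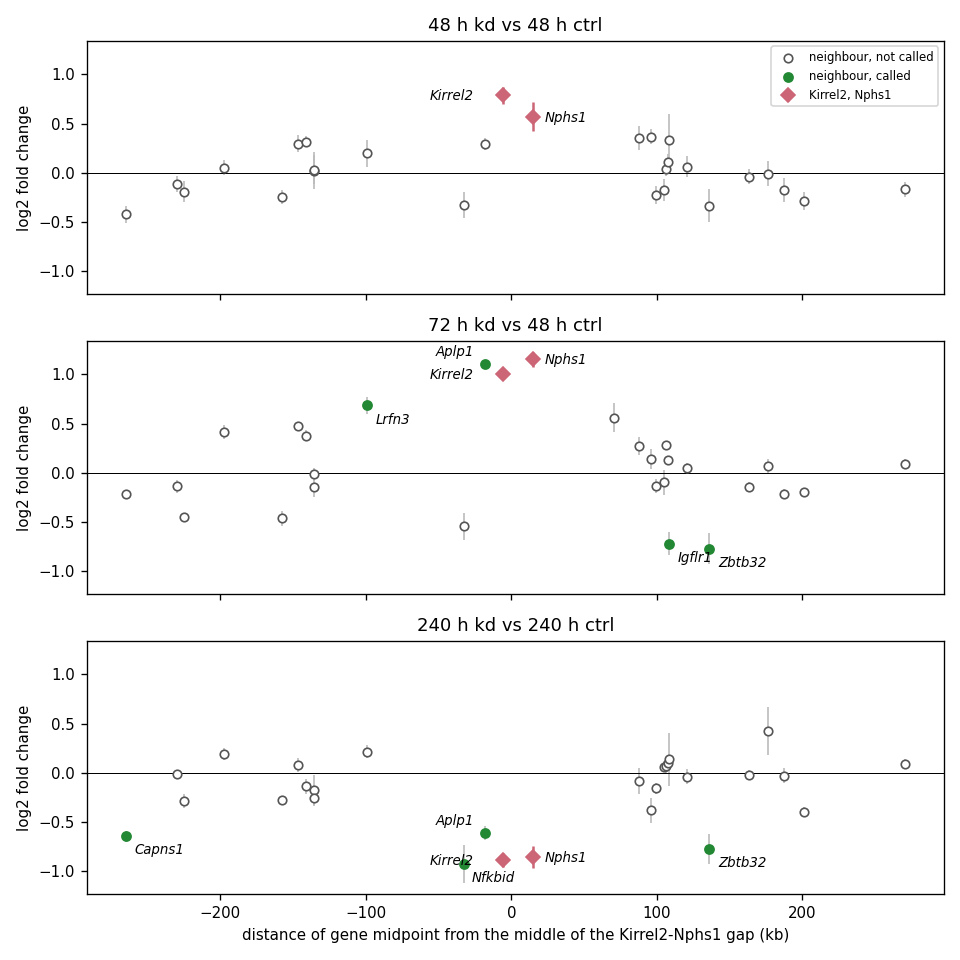
Log2 fold change (vertical axis) of protein-coding neighbours against the distance of their midpoint from the gap between Kirrel2 and Nphs1 (horizontal axis, kb, Kirrel2 side to the left), for the 3 comparisons. Red diamonds are Kirrel2 and Nphs1, green points neighbours that were called, open points those that were not, and bars the SE. Beside the pair, Aplp1 lies at 1.10 at 72 h and -0.61 at 240 h, while most neighbours lie nearer 0.

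Across all genes, 13 of the 10959 tested in both comparisons (0.119%) were called higher at 72 h and lower at 240 h, and 17 (0.155%) the other way. The 13 include the chosen pair by construction, and 4 of them (Nphs1, Kirrel2, Nphs1os and Aplp1) lie at this locus, although the reads of Nphs1os are also counted for Nphs1. The other 9 were Fabp3, Gm16253, Sfrp1, Neil2, Nkx6-3, Ldhb, Gm22133, Kbtbd11 and Polr3gl, of which Gm16253 and Polr3gl overlap each other and may share reads. Kirrel2, Neil2 and Nkx6-3 were called higher at 48 h as well, while Ldhb was called lower. With recovered reads the same pattern was found in 56 of 15900 genes (0.352%), which included all 13. Other genes with the same arrangement were counted for comparison. Of 676 listed pairs of protein-coding genes with divergent starts and at most 1000 bases between them, 366 had both members tested at 48 h by limma on log2 FPKM. In 6 of these pairs at least 1 member was called, and in 0 both were called, while in 28 both had an unadjusted p under 0.05 in the same direction, and with recovered reads both were called in the same direction in 3 of 574 pairs, Kirrel2 with Nphs1 among them. At 72 h at least 1 member was called in 55 of 365 pairs and both in the same direction in 9, of which 8 were other pairs than Kirrel2 with Nphs1. At 240 h these counts were 17 and 4 of 363 pairs, with 3 other pairs. At both later times Kirrel2 with Nphs1 is counted by its choice. For single genes tested by limma on log2 FPKM, the shares called at 48 h, 72 h and 240 h were 3.99%, 13.5% and 8.91%. At 48 h, 31.9% of single genes had an unadjusted p under 0.05, and the voom fit called 9.32%. A share of pairs and a share of single genes are unlike measures.

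The genes with the most similar profile were ranked by the root mean square difference of the group means of log2(FPKM + 0.1), each centred on its own mean over the 5 groups. For Nphs1, among 8903 genes ranked, these were Neil2 (0.057), a DNA glycosylase, Sfrp1 (0.070), a secreted Wnt antagonist, Aplp1 (0.120), Usp11 (0.127), a deubiquitinase, and Msln (0.137), mesothelin. Kirrel2 ranked 6 (0.154). For Kirrel2 the closest were Neil2 (0.133), Nphs1 (0.154), Msln (0.165), Pgc (0.167), progastricsin, and Sfrp1 (0.173). The median over all genes was 0.629 for Nphs1 and 0.688 for Kirrel2, but the pair was chosen on 2 of the times compared, which by itself brings their profiles close. Sfrp1, for one, had group means of 4.33, 6.24, 8.77, 4.58 and 2.73 FPKM.

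**Figure D4:**
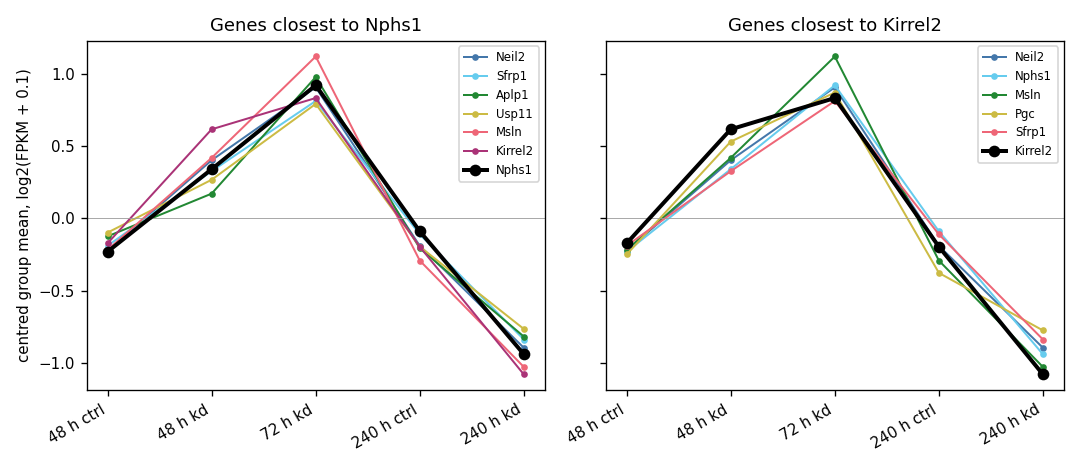
Group means of log2(FPKM + 0.1), centred on each gene's mean over the 5 groups (vertical axis), for Nphs1 and Kirrel2 (black) and the genes closest to each (coloured). Lines only join the points of a gene, and each point is the mean of 3 libraries. All profiles are highest in 72 h kd and lowest in 240 h kd, and Kirrel2 is the highest of its panel at 48 h kd.

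Other slit diaphragm genes were followed from a list. Of 28 genes of the slit diaphragm and its linkers, by limma on log2 FPKM, 0 of 12 tested were called at 48 h (7 with an unadjusted p under 0.05), 0 of 11 at 72 h (6 with an unadjusted p under 0.05) and 1 of 12 at 240 h, where Cdh3, P-cadherin, was downregulated (log2 fold change -1.14, limma adjusted p = 0.00015). Over all genes 3.99%, 13.5% and 8.91% were called at these times, and 31.9% and 60.8% had an unadjusted p under 0.05 at 48 h and 72 h. Many of these genes are long, so that their FPKM falls under the minimum of 0.5. With recovered reads, 24 could be tested, and 3, 4 and 4 were called at 48 h, 72 h and 240 h, beside 9.32%, 22.5% and 18.1% of all genes. Lower were Fyn, a kinase that phosphorylates nephrin, at 48 h and 72 h, Synpo, an actin-binding protein, at 48 h, the scaffold Magi2 and the sialomucin Podxl at 72 h, and Myo1e, Pik3r1 and Cdh3 at 240 h.

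Kirrel, which encodes Neph1, the close relative of Kirrel2, was the 1 gene of the list called higher. Untreated cells had 0.286, 0.294 and 0.261 FPKM in the libraries of 48 h and 0.365, 0.325 and 0.314 FPKM in those of 240 h. Knockdown cells had 0.472, 0.508 and 0.445 at 48 h, 0.514, 0.505 and 0.546 at 72 h and, at 240 h, 0.581, 0.593 and 0.598 FPKM. No knockdown library overlapped an untreated one, which also held for 12.3% of the 15746 genes tested with recovered reads at all 3 times. It was upregulated in all 3 comparisons with recovered reads, by 0.76, 0.89 and 0.81 on the log2 scale (limma voom adjusted p = 1.7e-05, 4.3e-12 and 1.0e-08), so it was above its control at 240 h, where Kirrel2 was below. That difference between the relatives was not tested. Kirrel3 had 0 to 8 reads per library.

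**Figure D5:**
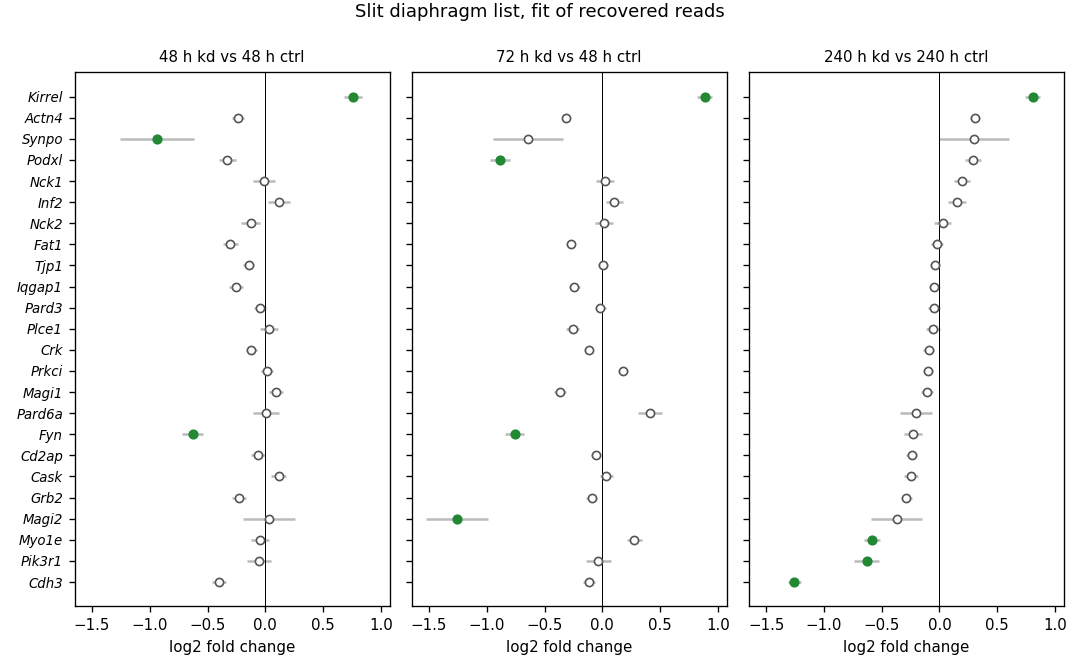
Log2 fold change ± SE (horizontal axis) of the 24 slit diaphragm genes that could be tested with recovered reads, in the 3 comparisons. Green points were called and open points were not. Kirrel lies at 0.76, 0.89 and 0.81, and the other called genes lie below 0.

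Of 6 podocyte transcription factors, 0 reached the FPKM minimum and 2, Wt1 and Lmx1b, could be tested with recovered reads, a fit that called 22.5% of all genes at 72 h and 18.1% at 240 h. Wt1 was downregulated at 72 h (log2 fold change -2.10) and 240 h (-1.01), while Lmx1b, with 4 to 96 reads per library, was upregulated at both (1.95 and 2.98). The summed level of 8 podocyte markers was 0.576 to 0.626 at 72 h of knockdown, against 0.922 to 1.00 FPKM in 48 h ctrl. At 240 h it was 1.16 to 1.21 FPKM with knockdown and 0.921 to 0.980 FPKM without it. Podxl, the 1 marker averaging above 0.5 FPKM, was at 0.315 to 0.371 against 0.610 to 0.663 FPKM at 72 h. At 240 h Podxl was at 0.715 to 0.763 against 0.569 to 0.629 FPKM. The sum thus ran opposite to the pair at these times, while Wt1 at 240 h and Lmx1b at 72 h ran with the pair. The summed level of 6 islet markers was 2.15 to 2.32 FPKM at 240 h of knockdown, almost all of it Neurog3 (2.04 to 2.19 FPKM), against 0.219 to 0.376 FPKM in 240 h ctrl, and 0.774 to 0.853 FPKM at 72 h of knockdown, against 0.269 to 0.491 FPKM in 48 h ctrl, with the hormone genes Ins1 and Gcg at 0 in all libraries. The 6 stem cell markers summed to 2259 to 2353 FPKM at 72 h of knockdown, against 1436 to 1547 FPKM in 48 h ctrl, and Dppa5a alone was at 1535 to 1601 FPKM at 72 h. Not all stem cell markers ran that way, with Zfp42 at 39.5 to 41.7 FPKM at 72 h of knockdown against 53.8 to 55.3 FPKM in 48 h ctrl. At 240 h the sum was 1315 to 1443 FPKM in ctrl and 1380 to 1436 FPKM in kd, while Esrrb was at 5.02 to 5.22 and 2.92 to 2.98 FPKM and Zfp42 at 48.2 to 51.3 and 32.3 to 33.7 FPKM. The sum of 7 neural markers was 9.30 to 9.70 FPKM at 72 h of knockdown against 16.3 to 17.1 FPKM in 48 h ctrl, and 19.1 to 20.4 FPKM at 240 h of knockdown against 15.3 to 17.6 FPKM without it. The sum of 6 primitive endoderm markers was 0.153 to 0.225 FPKM at 72 h against 0.570 to 0.613 FPKM, and 0.583 to 0.677 FPKM at 240 h against 0.764 to 0.832 FPKM. At 72 h the lower sum lay in Sox7 (0.0229 to 0.0664 against 0.413 to 0.463 FPKM). The ranges of the other markers in this set overlapped those of 48 h ctrl. At 240 h the lower sum lay in Sox7 (0.156 to 0.361 against 0.518 to 0.598 FPKM), while Gata6 was at 0.0718 to 0.0949 FPKM with knockdown and 0.0279 to 0.0455 FPKM without it. The sum of 5 fibroblast markers was 1.33 to 1.55 FPKM at 240 h of knockdown against 0.853 to 0.965 FPKM without it. At 72 h it was 0.564 to 0.679 FPKM against 0.727 to 0.927 FPKM in 48 h ctrl. Col1a1 was higher at 240 h (0.819 to 1.04 against 0.249 to 0.280) and at 72 h (0.265 to 0.308 against 0.158 to 0.173 FPKM). Thy1 was lower at 240 h (0.438 to 0.467 against 0.586 to 0.681) and at 72 h (0.249 to 0.391 against 0.555 to 0.744 FPKM). Col1a2 reached at most 0.0600 FPKM, and Dcn and Lum had 1 read or fewer in every library. The part of these cell states in the levels of Nphs1 and Kirrel2 was not tested.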

How the data were processed

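Per the labels and the methods of the study, the authors aligned single-end reads to mm10 with STAR 2.7.0c and counted them per gene in R. The deposited values are FPKM, 1 table per library, and the annotation behind them is not given in the sources used here. Multiplying FPKM by gene span and library total gave whole reads for 100% of values (tolerance 0.001). Where 1 gene lay within another on the opposite strand and averaged 100 reads or more, the enclosing gene's count was never lower in any library (415 of 415 pairs, and 147 of 147 whose inner gene touched no exon of the other), so reads were counted over introns and irrespective of strand. Of the listed genes, 53297 (96.5%) matched GENCODE M21, which gave strand and type.

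The test was limma 3.58.1 (R 4.3.3; trend, two-sided, Benjamini-Hochberg over all genes) on log2(FPKM + 0.1), for genes averaging 0.5 FPKM or more over the 6 libraries of a comparison. The voom fit used recovered reads with TMM factors, for genes averaging 10 or more. Both were tested on simulated data. Fold changes on log2(FPKM + 0.1) understate changes of low genes. Genes named are the pair, Smarcb1, called genes of the lists, the nearest coding neighbours and the 5 closest profiles. Kirrel3 and the marker genes were added with their values known, as was the set called at 72 h and 240 h. The pair, the lists and the tests were chosen with earlier results of these data known. A gene of the lists is not reported here.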

Additional observations from a re-analysis of the deposited data

Results flagged for a closer look

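Of 44 list genes tested, 5 responded to the knockdown differently at 240 h than at 48 h, by a limma interaction over 12 libraries. The pair, whose 240 h values chose it, was not counted, but Nphs1os, which shares reads with Nphs1, is among the 5. Aplp1 had a log2 fold change of 0.30 at 48 h and -0.61 at 240 h, a difference of -0.91 (limma adjusted p = 0.000187). Cdh3 had -0.38 and -1.14, a difference of -0.77 (limma adjusted p = 0.000105). Hspb6 had 0.37 and -0.38, a difference of -0.75 (limma adjusted p = 0.01), although neither effect alone was called. The antisense gene Gm26810, which overlaps Capns1, had -0.24 and -1.05, a difference of -0.81 (limma adjusted p = 0.0157). Nphs1os differed by -1.41, but its reads are also counted for Nphs1, so this call rests partly on values that chose the pair. Across all genes, 5.82% were called in this comparison.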

How the results depend on the processing

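The log2 differences of Nphs1 and Kirrel2 kept their direction under all alternatives run. With a pseudocount of 1, they were 0.79 (Kirrel2) and 0.96 (Nphs1) at 72 h and -0.58 and -0.62 at 240 h. With 240 h ctrl as the control, Nphs1 was at 1.01 at 72 h. For the 48 h test of Nphs1, the voom fit (0.58) and the fit without the first kd library (0.69) made a call where the reported fit made none. With each library left out in turn, Kirrel2 lay between 0.71 and 0.84 at 48 h, 0.97 and 1.06 at 72 h and -0.94 and -0.84 at 240 h, and Nphs1 between 0.42 and 0.69, 1.10 and 1.21, and -0.93 and -0.77. Counts of called genes moved with the settings. At 48 h, 456 became 208 with a pseudocount of 1, 208 with a minimum of 2 FPKM, 720 with a minimum of 10 reads and 1502 with voom. At 72 h, 1548 became 745, 768, 2500 with no minimum and 3629 with voom. At 240 h, 1016 became 541, 453, 1768 with no minimum, 1656 with 10 reads and 3003 with voom. The interaction count of 664 became 1737 with voom. With a library left out, counts were 343 to 447, 1521 to 1607 and 943 to 1056. Called neighbours of the pair, the genes inside Nphs1 included, were 6 at 72 h and 6 at 240 h. With a pseudocount of 1 they were 2 and 1, with a minimum of 2 FPKM 3 and 2, and with voom 10 and 7. The cause of these moves was not tested.

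The replicate numbers did not pair the libraries, since correlations of same-numbered deviations ran from -0.10 to 0.14 and at most 3 of 6 libraries correlated best with their own number. With the replicate block, 285 genes were called at 48 h. Kirrel2, at 0.79 (limma adjusted p = 0.0431), stayed called and Nphs1, at 0.57 (limma adjusted p = 0.141), stayed uncalled. Leaving out the nested genes' reads was chosen after seeing the data.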
